A study of Homo sapiens with 4 samples.

Results

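Transcripts of 10 genes for sensing extracellular nucleotides and for making or sensing adenosine were followed in H1792 lung cancer cells given the degrader ACBI1 or its solvent. They were selected by symbol from the 61228 genes counted: P2RX1, P2RX4, P2RX5, P2RX7, P2RY1, P2RY2, P2RY6, NT5E, ENTPD1 and ADORA2B. P2RX1 was set beside its relatives and beside genes of the adenosine pathway. The genes were chosen with the comparison of ACBI1 and DMSO in these same libraries known, so the calls given for them are a description. With ACBI1, P2RX1 went from 20.8 to 0.0112 CPM (reads of a gene per 1000000 reads counted), P2RY6 went from 8.13 to 0.0716 CPM, and P2RX7 went from 22.6 to 2.39 CPM as group means. The receptors P2RX5, P2RY1, P2RY2 and ADORA2B had log2 changes between -0.12 and 0.46, and none of these was called.

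ATP and other nucleotides leave stressed or dying cells and act on receptors of the P2X and P2Y families. P2X receptors are ATP-gated cation channels, and P2Y receptors couple to G proteins and respond to ATP, ADP, UTP or UDP. Outside the cell, the ectoenzyme CD39 (ENTPD1) removes phosphates from ATP and ADP to give AMP, and CD73 (NT5E) turns AMP into adenosine. Adenosine is known in tumours for dampening immune cells, and it acts on G protein-coupled receptors that include the low-affinity receptor A2B (ADORA2B).

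H1792 is an established human lung cancer cell line, labelled wild type in genotype, and each group held 2 libraries. The control cells received DMSO and the treated cells received ACBI1 at a dose written as 1 mM, both for 96 h in the same serum-containing medium. ACBI1 is a PROTAC that brings the SWI/SNF chromatin remodelling ATPases SMARCA2 and SMARCA4, and PBRM1, to the VHL ubiquitin ligase for degradation. The dose is unusually high for a PROTAC and could not be checked from counts, and protein levels were not analysed here. The labels number the libraries as replicates and do not say that they came from separate cultures, so p-values measure the spread between these libraries only.

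Gene counts per library ranged from 64281850 to 86010100. Among 10 markers of lung epithelium and adenocarcinoma, KRT7, KRT8 and KRT18 were abundant, while KRT19 had 3.44 and 5.00 CPM with DMSO. The epithelial cadherin gene CDH1 had 4 and 16 counts with DMSO and 7 and 6 with ACBI1. NAPSA had 17 and 17 counts with DMSO and 4 and 9 with ACBI1, and SFTPB had 6 and 6, then 6 and 9. NKX2-1 had 0 counts in each library and SFTPC had 1 count in all. The summed level of the 10, nearly all of it KRT7, KRT8 and KRT18, was 982 and 1035 CPM with DMSO and 323 and 202 CPM with ACBI1. KRT7, KRT8, KRT18 and KRT19 were called lower. EPCAM had 5.38 and 2.78 CPM with DMSO and 15.6 and 4.83 CPM with ACBI1, with overlapping groups, and was not called (edgeR adjusted p 0.179). P2RX1 is known from platelets, smooth muscle and leukocytes, so markers of these cells were read too. The 6 platelet markers summed to 0.896 and 1.11 CPM with DMSO and 2.02 and 1.43 CPM with ACBI1, with PF4 and GP9 at 0 counts in each library. The 8 leukocyte markers summed to at most 0.723 CPM in a library, and 4 of them had 0 counts throughout. The 6 smooth muscle markers, mostly ACTA2, summed to 9.51 to 12.01 CPM in each of the 4 libraries. Markers of fibroblasts and endothelium moved with the treatment. The 5 fibroblast markers summed to 355 and 790 CPM with DMSO and 71.6 and 223 CPM with ACBI1. Most of each sum was COL1A1, which was not called (edgeR adjusted p 0.0860). PDGFRB was not called either (0.0967), and DCN, LUM and PDGFRA were called lower. The 5 endothelial markers summed to 12.8 and 49.0 CPM with DMSO, nearly all of it PECAM1, and to 0.123 and 0.122 CPM with ACBI1. PECAM1 and VWF were called lower, and VWF and CDH5 had 0 counts in both ACBI1 libraries. Their part in the changes below was not tested. All 4 libraries are labelled H1792, so the markers are read as transcripts of this line and not as shares of other cell types. In bulk counts, fewer cells carrying a transcript and less of it per cell cannot be told apart.

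Each gene was tested with edgeR's quasi-likelihood test over 19159 genes and called at a Benjamini-Hochberg adjusted p under 0.05. Of the 10 genes, 3 were called, P2RX1, P2RX7 and P2RY6, each of them lower with ACBI1, and 0 were called higher. Over all genes tested, 17.4% were called, 10.6% as lower and 6.76% as higher. The 10 genes had a median log2 change of -0.47, beside 0.01 over all genes tested, and nothing is read from this gap, because the contrast helped to choose them. All 10 passed the filter on low counts, but P2RX1 and P2RY6 passed it through the DMSO libraries alone and ENTPD1 through the ACBI1 libraries alone. The groups did not overlap in 7 of the 10 genes, beside 63.2% of all genes tested. Both ACBI1 libraries were below both DMSO libraries in 5 of them (32.2% of all genes tested) and above in 2 (31.1%).

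**Figure D1:**
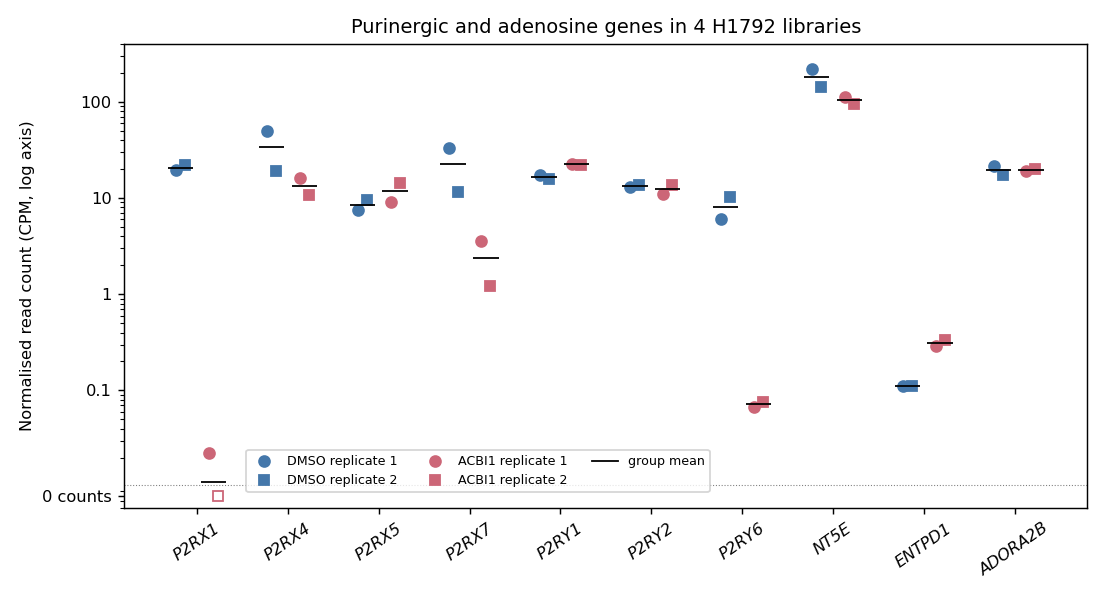
Normalised read counts of the 10 genes in each library (y axis, CPM on a log axis, with 0 counts drawn below the dotted line), by gene on the x axis; circles and squares are replicates 1 and 2 and bars are group means. P2RX1 and P2RY6 sit below 0.1 CPM in both ACBI1 libraries, while P2RY2 and ADORA2B overlap between the groups.

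P2RX1 encodes an ATP-gated channel that opens at low ATP and desensitises fast. It lies on chromosome 17 (chr17:3896592-3916500, minus strand, GRCh38, GENCODE 29), and no exon of another gene overlaps its exons. With DMSO it had 1594 and 1582 counts in replicates 1 and 2, or 19.6 and 22.0 CPM. With ACBI1 it had 2 counts in replicate 1 (0.0223 CPM) and 0 in replicate 2, where a count of 0 allows up to 0.0457 CPM. Each ACBI1 library was thus far below both DMSO libraries, which differed little from each other. Counts per effective library size were 1606 times higher with DMSO than with ACBI1, with a 95% exact counting interval from 444 to 13265 that covers counting error only. edgeR gave a log2 change of -10.49 (SE 0.54, adjusted p 0.00136). For so few ACBI1 counts the fitted value depends on the prior count, and leaving out ACBI1 replicate 1 gave -13.56, while leaving out ACBI1 replicate 2 gave -9.77.

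P2RX7 and P2RX4 lie next to each other on chromosome 12, 21.8 kb apart, with no coding gene between them. P2RX7 encodes the channel that needs high ATP and is known for driving inflammasome activation, and P2RX4 encodes a widely expressed, highly ATP-sensitive channel. P2RX7 had 33.5 and 11.6 CPM in DMSO replicates 1 and 2 and 3.55 and 1.22 CPM in ACBI1 replicates 1 and 2. Replicate 1 was the higher library in both groups, by 2.87 times with DMSO and 2.91 times with ACBI1, and the groups did not overlap. The log2 change of P2RX7 was -3.23 (SE 0.68, edgeR adjusted p 0.0277). With each library left out P2RX7 stayed lower, at -2.27 without DMSO replicate 1 and -4.20 without ACBI1 replicate 1. In such fits a single library stands for its group and is assumed to vary like the other group.

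P2RX4 had 49.6 and 18.9 CPM with DMSO and 16.1 and 10.8 CPM with ACBI1, in replicates 1 and 2. The groups did not overlap, but DMSO replicate 2 stood closer to the ACBI1 libraries than to DMSO replicate 1. At a log2 change of -1.35 (SE 0.46), P2RX4 missed the threshold (edgeR adjusted p 0.0975). DMSO replicate 1 decides this value, since the log2 change was -0.49 without it and -1.89 without DMSO replicate 2. With all 4 libraries, DESeq2 called P2RX4 lower (adjusted p 0.0134).

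Of the 10 genes, 6 matched an entry in RefSeq's promoter table (GRCh38.p14); P2RX1, P2RX5, P2RY2 and P2RY6 did not. The 250 bases before the RefSeq start sites of P2RX7 (chr12:121132626-121132875, plus strand) and P2RX4 (chr12:121209879-121210128, plus strand) are shown. They were chosen because these neighbouring genes were both lower in both ACBI1 libraries. The gene starts in GENCODE differ from these sites, at 121132819 for P2RX7 and 121209857 for P2RX4. By the GENCODE starts, the P2RX4 window lies wholly inside the gene and the P2RX7 window reaches into it. Capitals mark matches on either strand to a loose form of the NF-kB motif, GGG and CC with 5 bases of any kind between them.
P2RX7: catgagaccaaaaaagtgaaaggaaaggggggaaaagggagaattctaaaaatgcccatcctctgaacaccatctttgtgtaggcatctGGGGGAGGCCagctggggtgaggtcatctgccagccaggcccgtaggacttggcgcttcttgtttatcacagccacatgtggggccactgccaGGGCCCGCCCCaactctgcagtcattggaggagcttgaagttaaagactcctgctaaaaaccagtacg
P2RX4: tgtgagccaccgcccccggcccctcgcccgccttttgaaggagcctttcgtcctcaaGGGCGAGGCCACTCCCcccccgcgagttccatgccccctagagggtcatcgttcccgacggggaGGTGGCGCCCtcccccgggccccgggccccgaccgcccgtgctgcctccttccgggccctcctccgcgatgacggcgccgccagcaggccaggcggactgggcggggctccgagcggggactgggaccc
This motif is in 54.4% of the 35116 RefSeq promoters over the same 250 bases, so its presence is common. Overlapping matches are joined in the capitals. The AP-1 motif TGANTCA (in 6.57% of all promoters), the TEAD motif GGAATG (11.9%) and the cAMP response element TGACGTCA (1.65%), searched on both strands, had no match in these windows for any of the 6 genes. A match, or its absence, describes these letters only.

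P2RX5 encodes a P2X subunit whose common human form conducts poorly, and it was the P2X gene among the 10 with a log2 change above 0. It had 7.43 and 9.55 CPM with DMSO and 9.04 and 14.4 CPM with ACBI1, and the groups overlapped. P2RX5 had a log2 change of 0.46 (SE 0.30) and missed the threshold (edgeR adjusted p 0.331). Leaving out ACBI1 replicate 1 gave 0.77, and leaving out ACBI1 replicate 2 gave 0.08. Of its exonic length, 41.6% is shared with the read-through gene P2RX5-TAX1BP3 on the same strand, so P2RX5 can lose reads as ambiguous. P2RX5-TAX1BP3 itself had 71 to 126 counts per library and a log2 change of 0.42 (adjusted p 0.443).

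The change of P2RX1 against each relative was also read inside each library, where scaling between libraries cancels. The log2 ratio of P2RX1 to P2RX4 was -1.34 and 0.22 with DMSO and -8.39 and -8.70 with ACBI1. Against P2RX5, which is on the same chromosome arm, it was 1.39 and 1.20 with DMSO and -7.55 and -9.12 with ACBI1. Against P2RX7 it was -0.77 and 0.92, then -6.21 and -5.59. Only the shift between the groups can be compared across genes, since the ratios are not per length. The ratio to P2RX7 shifted by -5.97, that to P2RX4 by -7.98 and that to P2RX5 by -9.63. Against the adenosine genes it shifted by -8.41 (NT5E), -10.50 (ENTPD1) and -9.22 (ADORA2B). The smallest shift was that against P2RY6, -2.86. With 2 and 0 ACBI1 counts of P2RX1, the size of all these shifts depends on the prior count. With a prior count of 0.5 in place of 2, those against P2RX7, P2RX4 and P2RX5 were -7.33, -9.35 and -11.01. With 2 against 2 libraries the exact two-sided permutation p of each of the 9 shifts was 0.333, the smallest this design allows.

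P2RY6 encodes the UDP receptor. It had 491 and 736 counts in DMSO replicates 1 and 2 (6.03 and 10.2 CPM) and 6 and 5 counts in the ACBI1 libraries (0.0670 and 0.0762 CPM). The spread between the DMSO libraries was small beside the distance to the ACBI1 libraries. Counts per effective library size were 113 times higher with DMSO (95% exact counting interval 62.8 to 227). The log2 change was -6.80 (SE 0.49, edgeR adjusted p 0.00210), and with each library left out in turn it stayed called, between -7.13 and -6.38.

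P2RY2, the receptor for ATP and UTP, is the neighbour of P2RY6 on chromosome 11, 28.2 kb away with no coding gene between. It had 13.1 and 13.8 CPM with DMSO and 11.01 and 13.8 CPM with ACBI1, so the groups overlapped. Its log2 change was -0.12 (SE 0.22, edgeR adjusted p 0.743) and turned to 0.042 without ACBI1 replicate 1. P2RY1, the ADP receptor, had 17.5 and 16.0 CPM with DMSO and 22.7 and 21.9 CPM with ACBI1. Both ACBI1 libraries were above both DMSO libraries, but P2RY1, at a log2 change of 0.42 (SE 0.17), missed the threshold (adjusted p 0.155).

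NT5E, the CD73 gene, was the most abundant of the 10 genes per length in both groups. It had 222 and 144 CPM in DMSO replicates 1 and 2 and 112 and 95.6 CPM in ACBI1 replicates 1 and 2. The groups did not overlap, and DMSO replicate 1 was 1.54 times DMSO replicate 2. NT5E, at a log2 change of -0.82 (SE 0.24), missed the threshold in edgeR (adjusted p 0.0683). DESeq2 called NT5E lower (adjusted p 0.0270). Without DMSO replicate 2 the log2 change was -1.10, and without DMSO replicate 1 it was -0.47.

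ENTPD1, the CD39 gene, was close to the limit of counting. It had 9 and 8 counts with DMSO and 26 and 22 with ACBI1, or 0.1105, 0.1112, 0.290 and 0.335 CPM. Both ACBI1 libraries were above both DMSO libraries, and ENTPD1, at a log2 change of 1.48 (SE 0.48), missed the threshold (edgeR adjusted p 0.0875). Exons of other genes cover 8.99% of its exonic length, of which the antisense gene ENTPD1-AS1 shares 6.51%. ENTPD1-AS1 had far more reads, 31.6 and 20.7 CPM with DMSO and 54.5 and 49.7 CPM with ACBI1, a called log2 change of 0.99 (edgeR adjusted p 0.0361). It lost that call without DMSO replicate 2 (adjusted p 0.0705), without ACBI1 replicate 1 (0.1199) and without ACBI1 replicate 2 (0.0725). Counting is not stated to use strand, so reads of ENTPD1 and ENTPD1-AS1 cannot be told apart where they overlap. The low count of ENTPD1 is uncertain over that part of its exonic length, and the effect of the overlap was not tested.

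ADORA2B had 21.6 and 17.4 CPM with DMSO and 19.2 and 20.1 CPM with ACBI1. The ACBI1 libraries lay between the DMSO libraries, and the log2 change was 0.01 (SE 0.19, edgeR adjusted p 0.973). Its sign depended on the libraries used, and it turned to -0.14 when DMSO replicate 2 was left out and to -0.029 when ACBI1 replicate 2 was.

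Levels were compared between genes as CPM per kb of exonic length. With DMSO, NT5E stood first at 40.4 ± 12.1 CPM per kb (SD, n = 2), followed by ADORA2B at 7.63 ± 1.16, P2RX1 at 5.23 ± 0.430 and P2RY2 at 4.70 ± 0.182. The library values of these 4 genes did not overlap between neighbours in the order. P2RY2, P2RX4 (4.20 ± 2.66), P2RX7 (4.07 ± 2.78), P2RY1 (2.48 ± 0.163), P2RY6 (2.04 ± 0.747) and P2RX5 (2.03 ± 0.358) followed, and each overlapped the next. ENTPD1 was last at 0.0159 CPM per kb. By group means, P2RX1 was the third of the 10 genes with DMSO. Its place differed between the DMSO libraries, since in replicate 1 it had 4.93 CPM per kb, below P2RX4 (6.08) and P2RX7 (6.03), and in replicate 2 it had 5.54, above P2RX4 (2.32) and P2RX7 (2.0996). With ACBI1, P2RX1 was the last, at 0.00281 ± 0.00398 CPM per kb. With ACBI1 the order was NT5E (22.9 ± 2.57), ADORA2B (7.70 ± 0.242), P2RY2 (4.33 ± 0.678), P2RY1 (3.31 ± 0.0833) and P2RX5 (2.80 ± 0.903), of which P2RY1 and P2RX5 overlapped. P2RX4, P2RX7, ENTPD1, P2RY6 and P2RX1 came below them without overlap. Divided by the longest transcript instead, 5 genes took another place with DMSO, where P2RX4 came before P2RX1, and 3 took another place with ACBI1.

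**Figure D2:**
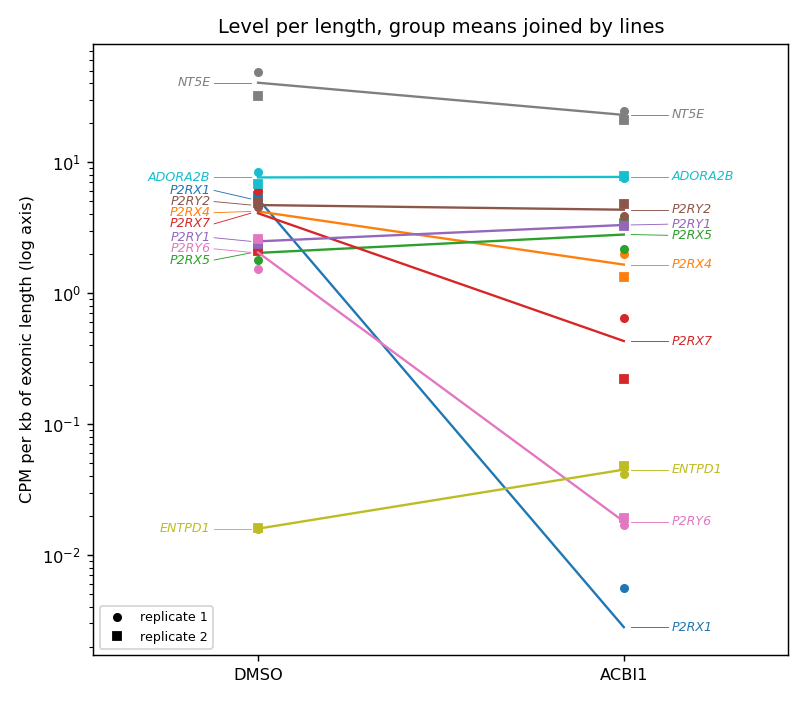
Level of each gene per kb of exonic length (y axis, CPM per kb, log axis) with DMSO and with ACBI1; lines join group means, and circles and squares are replicates 1 and 2 (P2RX1 at 0 counts in ACBI1 replicate 2 has no symbol). By group means P2RX1 goes from the third place with DMSO, where its libraries overlap those of P2RX4 and P2RX7, to the last with ACBI1, and NT5E and ADORA2B keep the first and the second.

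The genes whose levels were most like those of P2RX1, by Euclidean distance of log2 CPM over the 4 libraries, were DMBT1 (distance 0.69), IL7R (1.91), LINC00996 (2.001) and PECAM1 (2.007). DMBT1, a secreted scavenger-receptor protein of epithelia, had 1216 and 2216 counts with DMSO and 3 and 0 with ACBI1. IL7R, the interleukin-7 receptor chain, had 1567 and 1687 counts with DMSO and 5 and 4 with ACBI1. The non-coding gene LINC00996 went from 525 and 1970 counts to 3 and 2, and PECAM1, an adhesion protein of endothelium and blood cells, from 997 and 3461 to 1 and 3. The DMSO libraries of P2RX1 and IL7R were close to each other, whereas those of LINC00996 and PECAM1 were several-fold apart. The ACBI1 libraries entered the distance, so the low ACBI1 counts of these genes follow from how they were picked. Like P2RX1, they passed the filter on low counts through the DMSO libraries alone, and nothing is read from their falls.

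Around P2RX1 the nearest coding genes went opposite ways. ATP2A3, an endoplasmic reticulum calcium pump, lies 7.37 kb beyond the start of P2RX1 and had 75.4 and 41.1 CPM with DMSO and 15.4 and 7.50 CPM with ACBI1. Its log2 change was -2.35 (edgeR adjusted p 0.0189), and it was called with each library left out. CAMKK1, a calcium/calmodulin-dependent kinase kinase, lies 1.701 kb beyond the other end and had 13.1 and 10.1 CPM with DMSO and 21.8 and 22.2 CPM with ACBI1. The log2 change of CAMKK1 was 0.93 (adjusted p 0.0334), which lost its call without DMSO replicate 2 (0.0962), ACBI1 replicate 1 (0.125) or ACBI1 replicate 2 (0.123). Among 12 tested genes with starts within 250 kb of that of P2RX1, itself included, 2 were called lower and 1 higher. These were P2RX1 and ATP2A3 as lower and CAMKK1 as higher, beside 10.6% lower and 6.76% higher over all genes tested. Near P2RX7, 2 of 6 were called lower, P2RX7 and OASL. OASL, an interferon-induced gene, had 113 and 137 counts with DMSO and 1 and 5 with ACBI1, and passed the filter through the DMSO libraries alone. Near P2RY6, 1 of 5 was called, P2RY6 itself, and ARHGEF17 on its far side had a log2 change of -0.15 (adjusted p 0.595). P2RX1, P2RX7 and P2RY6 are counted in their own windows and were chosen with this comparison known, so nothing is read from these counts.

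**Figure D3:**
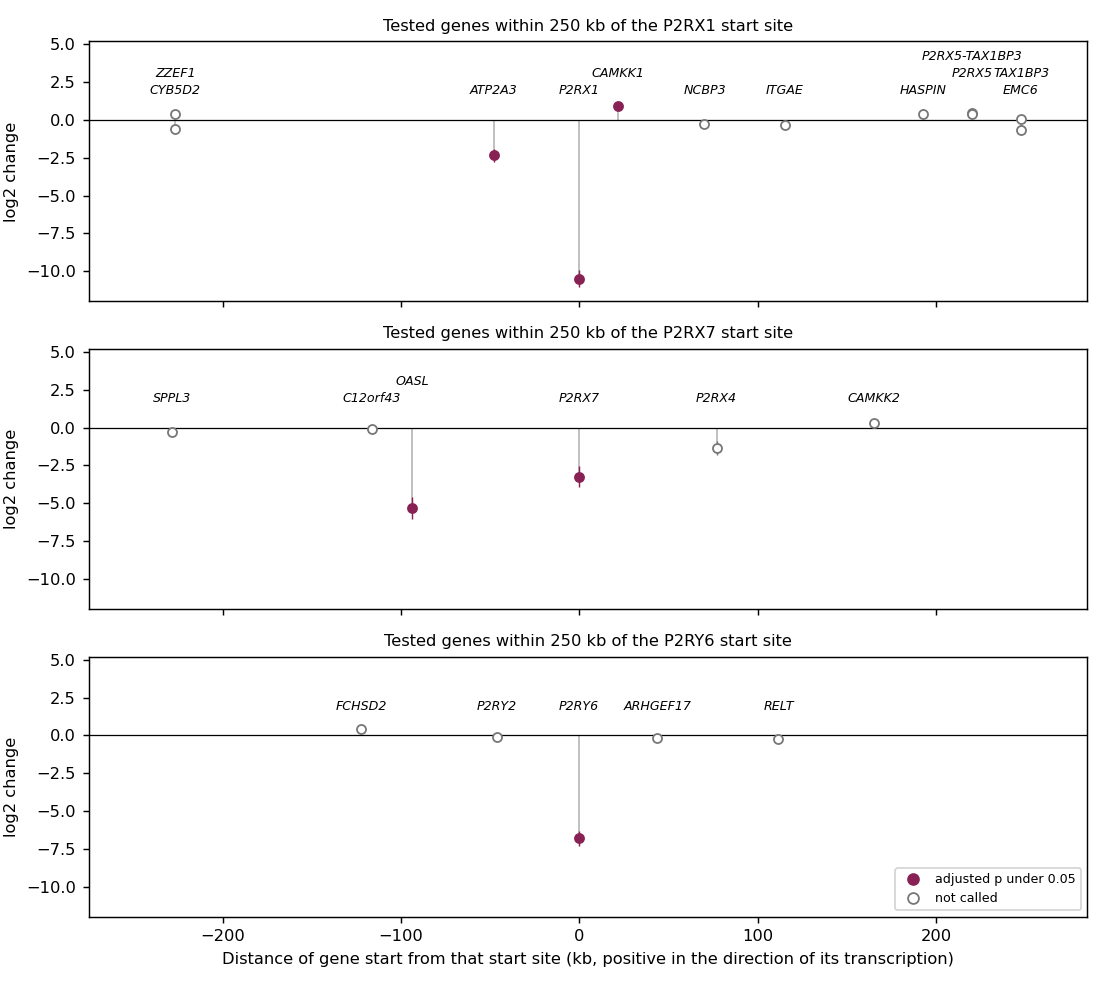
log2 change (y axis, ACBI1 against DMSO, bars are 1 SE) of tested genes whose start lies within 250 kb of the start of P2RX1, P2RX7 or P2RY6 (x axis, distance in kb along the direction of transcription of that gene); filled points were called. P2RY6 lies far below its neighbour P2RY2, at -0.12. Beside P2RX1, ATP2A3 was called lower at -2.35 and CAMKK1 higher at 0.93, and P2RX5, 200 kb away, was at 0.46 and not called.

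Beyond the 10 genes, 77 genes of the pathway were read in 7 lists, of which 56 could be tested; 4 were called higher and 8 lower, and their median log2 change was 0.04. Over all genes tested, 6.76% were called higher and 10.6% lower, and the counts of the lists below are given beside these shares. Scaled by library size only, 6 pathway genes were called higher and 6 lower, and GNAI2 and ADCY6 were not among them. Among the other P2X genes, P2RX6, a subunit that rarely forms channels alone, fell from 235 and 278 counts to 16 and 5, a log2 change of -4.67 (SE 0.51, edgeR adjusted p 0.00512). P2RX2 had 0 counts in each library and P2RX3 had at most 2. Of 5 P2X genes that could be tested, P2RX1, P2RX6 and P2RX7 were called lower, beside 10.6% of all genes tested, and nothing is read from this count, since P2RX1 and P2RX7 were chosen with this comparison known. Of 7 other P2Y genes, P2RY4 and P2RY11 were tested and neither was called, and 4 had 0 counts throughout. Among the other adenosine receptors, ADORA1 and ADORA2A were tested and not called. ADORA2A, the high-affinity receptor known from immune cells, had 77 and 88 counts with DMSO and 1 and 18 with ACBI1 (adjusted p 0.0886).

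Of 15 ectoenzymes and NTPDases, 8 were tested, 1 was called lower and 0 higher. ACP3, a phosphatase that can turn AMP into adenosine, had 40 and 134 counts with DMSO and 2 and 5 with ACBI1. Its log2 change was -4.61 (edgeR adjusted p 0.0242), and it passed the filter on low counts through the DMSO libraries alone. Without ACBI1 replicate 1 the call of ACP3 was lost (adjusted p 0.0761). Of 13 genes for adenosine uptake and removal, 11 were tested, 2 were called higher and 0 lower. SLC29A4, a transporter of monoamines and adenosine, rose from 173 and 402 counts to 1402 and 1722, a log2 change of 2.44 (adjusted p 0.0265). It lost the call without ACBI1 replicate 2 (adjusted p 0.0571). AHCY, which splits S-adenosylhomocysteine into adenosine and homocysteine inside the cell, had a log2 change of 0.88 (adjusted p 0.0282). AHCY lost the call without DMSO replicate 2 (0.0575), ACBI1 replicate 1 (0.141) or ACBI1 replicate 2 (0.0655). The adenosine kinase gene ADK, at 0.40 (adjusted p 0.201), and the equilibrative transporter gene SLC29A1, at 0.18 (adjusted p 0.658), were not called.

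Of 15 genes for ATP release, 13 were tested, 4 were called lower and 0 higher. These were GJB2 with a log2 change of -2.05 (edgeR adjusted p 0.0393), the widespread connexin gene GJA1 with -1.09 (0.0229), CALHM2 with -0.92 (0.0282) and PANX2 with -0.79 (0.0286). GJA1 lost its call without ACBI1 replicate 1 (0.108), GJB2 without DMSO replicate 2 (0.0753) or ACBI1 replicate 1 (0.165), CALHM2 without any library but DMSO replicate 1 (0.0862 to 0.142), and PANX2 without any of the 4 (0.0519 to 0.154). PANX1, the pannexin best known for ATP release, was at -0.20 (adjusted p 0.608), and the vesicular nucleotide transporter gene SLC17A9 at 0.06 (0.860). Of 21 G proteins and effectors, 19 were tested, 2 were called higher and 2 lower. The adenylyl cyclase genes ADCY1 (log2 change 0.93, adjusted p 0.0319) and ADCY3 (0.92, 0.0274) were higher, and GNAI2 (-1.02, 0.0467) and ADCY6 (-0.63, 0.0420) were lower. ADCY1 and GNAI2 lost their calls without DMSO replicate 2, ACBI1 replicate 1 or ACBI1 replicate 2, ADCY3 without either replicate 2, and ADCY6 without any of the 4. Of the 12 called pathway genes, 1 kept its call with each library left out, P2RX6. In these fits a single library stands for its group and is assumed to vary like the other group. The number called was 15 without DMSO replicate 1, 4 without DMSO replicate 2, 6 without ACBI1 replicate 1 and 5 without ACBI1 replicate 2.

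**Figure D4:**
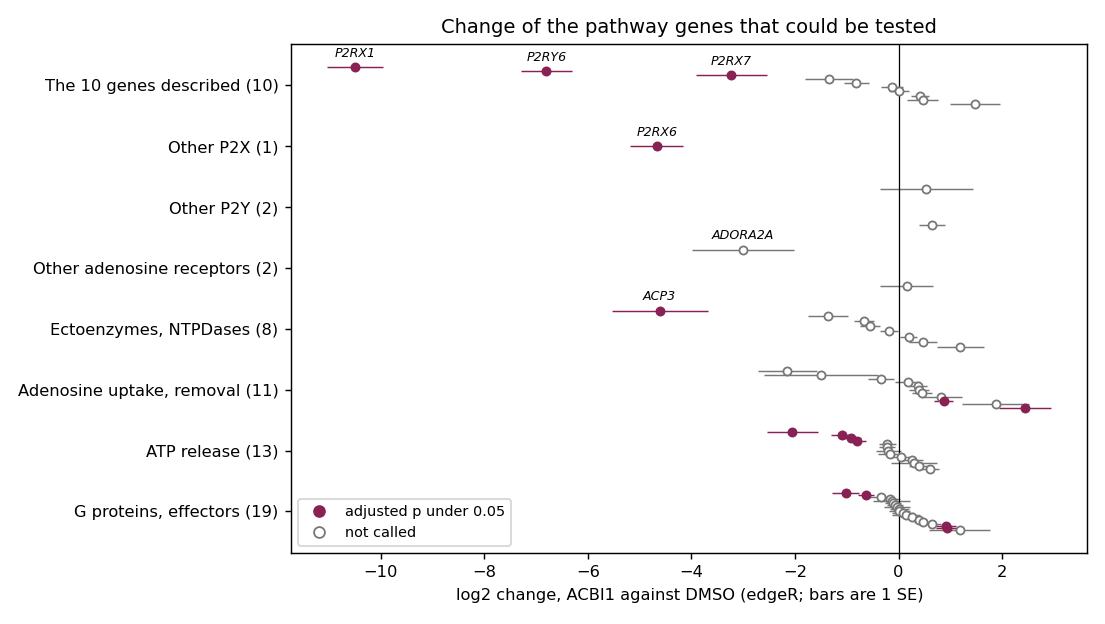
log2 change with ACBI1 against DMSO (x axis, bars are 1 SE) of the 10 genes and of the tested genes in 7 pathway lists (rows, with the number tested); filled points had an edgeR adjusted p under 0.05. P2RX1, P2RY6, P2RX6, ACP3 and P2RX7 are the called genes below -3, and SLC29A4, at 2.44, is the called gene furthest above 0.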

How the data were processed

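The authors deposited counts of RNA-seq reads per gene symbol, 1 file per library, as whole numbers that are not normalized. Per the submitters' processing notes, TopHat2 2.1.1, HTSeq 0.11.0 and hg38 were used; the annotation and strand setting are not given in the sources used here. The labels name a kit sold for DNA libraries. The 5 closing lines for reads given to no gene, 13.9% to 15.4% of the reads listed, were left out of library sizes and tests.

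Genes were filtered with filterByExpr (minimum count 10, minimum total count 15), scaled by TMM and compared by the quasi-likelihood test of edgeR 4.0.16 under R 4.3.3 (two-sided, all 4 libraries, treatment alone); p-values were adjusted over the 19159 genes tested. CPM use TMM-scaled library sizes, and log2 ratios and distances used log2 CPM with a prior count of 2. For a count of 0, the level that 3 counts would give is stated as its limit. Group means and levels per kb keep such a count as 0. Exonic lengths, overlaps and positions came from GENCODE 29, matched by symbol. The fits were tested on simulated data.

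The members and lists were chosen with earlier results of these data known. Named are all 10 members, at most the 4 called genes of largest change per pathway list, the 4 genes nearest to P2RX1 in level, and neighbours; other genes of the lists (ADORA1, ADORA2A, P2RY4, P2RY11, P2RX2, P2RX3, ADK, PANX1, SLC17A9, SLC29A1, OASL, ARHGEF17) were picked after their values were seen. Alternatives were other scalings, no filter, DESeq2 1.42.0, limma-voom (limma 3.58.1), a replicate block, a threshold of 0.01 and each library left out.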

Additional observations from a re-analysis of the deposited data

How the results depend on the processing

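P2RX1, P2RY6 and P2RX7 were called lower under each alternative fit, and P2RX7 (adjusted p 0.0277) was not called at a threshold of 0.01. The number called among the 10 genes was 3 under the other scalings and limma-voom, 5 without a filter and 5 with DESeq2, and 3 to 5 with a library left out; the 2 added were P2RX4 and NT5E. The labels share replicate numbers but do not say that a number marks a batch; deviations of same-numbered libraries correlated across genes (r = 0.44), and with the replicate block 7 of the 10 genes were called: beside the 3, P2RX4 (adjusted p 0.000299) and NT5E (0.00109) as lower and P2RY1 (0.0349) and ENTPD1 (0.0421) as higher. Called pathway genes numbered 12, or 20 without a filter, 29 with the replicate block, 1 at a threshold of 0.01 and 4 to 15 with a library left out. Scaling by library size only also called 12, 6 higher and 6 lower, but GNAI2 (adjusted p 0.0540) and ADCY6 (0.0575) lost their calls and 2 other genes gained one, and the median of all genes moved to 0.10.

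With a prior count of 0.5 the shifts of the log2 ratio of P2RX1 were -9.35 (P2RX4), -11.01 (P2RX5), -7.33 (P2RX7), -10.99 (P2RY1), -10.44 (P2RY2), -3.91 (P2RY6), -9.78 (NT5E), -12.01 (ENTPD1) and -10.59 (ADORA2B), since P2RX1 had 2 ACBI1 counts. With a library left out, the log2 change of P2RY2 ranged from -0.30 to 0.042 (above 0 without ACBI1 replicate 1) and that of ADORA2B from -0.14 to 0.18 (-0.14 without DMSO replicate 2 and -0.029 without ACBI1 replicate 2). The median log2 change of the 10 genes stayed between -0.62 and -0.31. With 2 libraries a group, the sizes of the changes of P2RX4 and NT5E depend on DMSO replicate 1. Without that library both genes were still lower with ACBI1, at log2 changes of -0.49 and -0.47. ENTPD1 is limited by its 65 counts.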
